A study of Mus musculus with 6 samples.

Results

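The genes described here are those of the major histocompatibility complex (MHC) and of antigen presentation, measured in colon tumors of mice. They were chosen by symbol: every probe set of the array whose platform symbol begins with H2-, the mouse MHC, or is 1 of B2m, Tap1, Tap2, Tapbp, Ciita, Cd74, Psmb8, Psmb9, Psmb10, Nlrc5, Erap1, Cd1d1, Cd1d2 and Mr1. The rule found 71 of the 35556 probe sets, with 56 distinct symbols. Of these, 28 probe sets hold class I heavy chains or class I-like chains, 29 hold genes that load class I (19 of them are probe sets of Nlrc5 alone), 11 hold class II genes and 2 hold the lipid presenting chains Cd1d1 and Cd1d2. The remaining set is H2-Ke6, which lies in the complex but is not an antigen presentation gene. Of the 71, 10 sets carry several symbols, and each was counted once. Of these, 2 pair Tapbp with the ribosomal protein gene Rps3a1 on another chromosome, and the others pair members of the complex with their close relatives.

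Tumors came from mice of strain C57BL/6J killed at 3 weeks of age, with 1 array per tumor and 3 tumors per genotype. Neither the sample titles nor the paper states that the 3 tumors of a genotype came from different mice. The Apc knockout tumors were from CDX2P-G19Cre;Apcflox/flox mice, and the double knockout tumors from CDX2P-G19Cre;Apcflox/flox;Tgfbr2flox/flox mice, so both genotypes carry the same Cre and lack Apc, and the comparison asks what differs when the type II TGF-β receptor is also deleted. The Cre is driven by a fragment of the human CDX2 promoter, active in colon epithelium, and is switched on at random in single cells by a frameshift reversion, so deletion is limited to a part of the epithelium. Tumor tissue was cut from stained frozen sections by laser microdissection before RNA was extracted. All values below are log2 signals of the array after RMA, its usual background correction, quantile normalization and summary, and the order of values within a genotype is tumor 1, 2, 3.

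Tgfbr2 itself read 10.98, 10.35 and 10.47 in the double knockout tumors and 11.35, 11.37 and 11.09 in the Apc knockout tumors, with no overlap. The probe set was not matched to the deleted exons, so it checks the labels only in part. Array medians lay between 7.68 and 7.80. Double knockout tumor 2 stood apart: over all probe sets it correlated with the other tumors at 0.956 to 0.968, against 0.980 to 0.988 among the other 5. Its summed signal of colonocyte differentiation genes (log2 15.33, against 12.73 to 14.39 in the others) and of smooth muscle markers (14.15, against 11.99 to 12.60) was the highest, and Cdx2, the intestinal transcription factor, was lowest in it (8.24, against 10.08 to 11.18). Where a result rests on this tumor, the value without it is given too. The epithelial markers were present in all tumors, with summed signals of 15.73 to 16.01 in the double knockout and 15.64 to 15.85 in the Apc knockout tumors. In bulk RNA fewer cells of a type and less RNA per cell cannot be told apart.

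Class I molecules show peptides from inside the cell to CD8 T cells. The immunoproteasome subunits cut the peptides, the TAP transporter brings them into the endoplasmic reticulum, Erap1 trims them, and tapasin helps to place them on a heavy chain bound to B2m. Nlrc5 is the transcriptional activator of this set, and interferon gamma raises nearly all of it. Class II molecules show peptides from engulfed material to CD4 T cells. They are made mainly by dendritic cells, macrophages and B cells under the control of Ciita, although intestinal epithelium can make them too. CD1d is built like a class I chain but holds lipids, which it shows to natural killer T cells, and Mr1 holds small metabolites for mucosal-associated invariant T cells.

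The promoters below belong to members on which the results turn: H2-K1, H2-Q6, B2m and Tap1 had their lowest signal in the same tumor, H2-T3 was high in another alone, H2-M2 separated the genotypes and H2-Aa is a class II chain. The RefSeq promoter table (assembly GRCm38.p6) held a window, from 250 bases before to 50 bases after the gene's start, for 39 of the 55 member symbols looked up. The 250 bases before the start are printed, 5′ to 3′ on the gene's strand. Capitals mark the motifs that were searched on both strands: the Y box ATTGG, to which NF-Y binds, the core GGGGATTCC of enhancer A, to which NF-κB binds, TTTCACTT from the interferon response element of class I promoters, and GAAANNGAA from the interferon-stimulated response element. The last pair can share bases where they lie on opposite strands.
H2-K1, chr17:34000348-34000597 (- strand): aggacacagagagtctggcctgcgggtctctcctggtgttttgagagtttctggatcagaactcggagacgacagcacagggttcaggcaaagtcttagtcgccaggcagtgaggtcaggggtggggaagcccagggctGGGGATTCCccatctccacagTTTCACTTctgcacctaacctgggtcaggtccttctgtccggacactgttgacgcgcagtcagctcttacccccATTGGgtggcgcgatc
H2-Q6, chr17:35424600-35424849 (+ strand): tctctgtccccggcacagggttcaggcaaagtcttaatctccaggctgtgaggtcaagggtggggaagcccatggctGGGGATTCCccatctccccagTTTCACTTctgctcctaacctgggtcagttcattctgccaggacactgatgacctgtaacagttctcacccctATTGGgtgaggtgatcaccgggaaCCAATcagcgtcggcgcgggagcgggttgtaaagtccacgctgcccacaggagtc
H2-T3, chr17:36190152-36190401 (- strand): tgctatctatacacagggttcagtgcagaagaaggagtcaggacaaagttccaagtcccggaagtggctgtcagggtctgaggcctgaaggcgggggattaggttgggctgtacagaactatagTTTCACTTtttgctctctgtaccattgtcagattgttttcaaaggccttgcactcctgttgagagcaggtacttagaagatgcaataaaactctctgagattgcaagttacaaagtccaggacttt
H2-M2, chr17:37483555-37483804 (- strand): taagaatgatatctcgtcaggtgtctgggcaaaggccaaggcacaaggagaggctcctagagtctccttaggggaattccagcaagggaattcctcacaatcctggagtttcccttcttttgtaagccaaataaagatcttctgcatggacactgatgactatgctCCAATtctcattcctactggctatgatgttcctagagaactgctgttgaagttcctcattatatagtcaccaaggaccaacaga
B2m, chr2:122147437-122147686 (+ strand): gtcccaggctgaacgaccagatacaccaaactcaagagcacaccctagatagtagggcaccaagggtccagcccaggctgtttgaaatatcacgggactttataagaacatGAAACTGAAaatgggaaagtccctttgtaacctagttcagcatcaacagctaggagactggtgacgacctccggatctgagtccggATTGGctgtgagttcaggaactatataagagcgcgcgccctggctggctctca
Tap1, chr17:34187306-34187555 (+ strand): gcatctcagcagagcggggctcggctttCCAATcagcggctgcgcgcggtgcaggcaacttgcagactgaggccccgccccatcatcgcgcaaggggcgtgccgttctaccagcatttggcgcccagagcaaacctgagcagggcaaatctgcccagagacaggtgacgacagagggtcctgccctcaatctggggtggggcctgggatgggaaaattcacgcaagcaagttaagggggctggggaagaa
H2-Aa, chr17:34287824-34288073 (- strand): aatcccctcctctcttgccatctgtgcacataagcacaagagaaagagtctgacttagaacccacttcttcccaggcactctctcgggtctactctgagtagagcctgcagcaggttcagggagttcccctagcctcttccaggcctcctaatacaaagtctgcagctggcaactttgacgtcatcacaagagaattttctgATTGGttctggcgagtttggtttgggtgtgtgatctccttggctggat

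H2-K1 and H2-Q6 hold enhancer A, TTTCACTT and a Y box in the same order. In all, enhancer A was found in 4 of 25 class I heavy chain windows (H2-D1, H2-Q6 and both windows of H2-K1), against 0.25% of all 32851 promoters in the table. TTTCACTT was found in 9 of 25, against 1.6% of all promoters, and was in 0 of 9 class II windows. The Y box was in 21 of 25 class I heavy chain windows, 4 of 7 loading gene windows and 8 of 9 class II windows, against 37.4% of all promoters. GAAANNGAA was found in B2m, Erap1, H2-T22 and H2-T23, against 8.56% of all promoters. These windows share ancestry and their matches are a description of the letters. Cd1d1, Cd1d2, Nlrc5, H2-Ab1 and Ciita are among the members without a window here.

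Of the 71 member sets, 65 had a mean signal at or above the 20th percentile of the array (5.88) and were tested with limma. The other 6, H2-Ea, H2-M1, H2-M10.1, H2-M10.5, H2-M10.6 and H2-M11, were below it, and H2-Ea, a pseudogene in this strain, lay between the 14.3rd and 16.0th percentile in every tumor. No member passed an adjusted p of 0.05 in limma, and neither did any of the 19506 sets tested (0%). At an unadjusted p under 0.05, 4 members were called, or 6.15% of those tested, against 5.6% of all sets. Of the 4, 2 were higher in the double knockout, where 1.78% of all sets were, and 2 lower, where 3.82% were. In 3 members (4.62%) the genotypes did not overlap, against 12.2% of all sets: 1 was higher (5.25% of all sets) and 2 were lower (6.94%). The unpaired t-test named in the methods called 3 members at an unadjusted p under 0.05, against 5.12% of all sets. These shares were near or below the background. They are lowered by the 19 sets of the single gene Nlrc5, of which 0 were called and 0 were free of overlap. The median log2 fold change of the 65 members, double knockout minus Apc knockout, was 0.01, as it was over all sets. Of the members 33 were higher and 32 lower, where 47.7% of all sets were lower. The even split rests on Nlrc5, with 18 of its sets lower and 1 higher, so it does not describe the members gene by gene. With 3 tumors against 3, an exact permutation test of a single gene cannot go below a two-sided p of 0.1.

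**Figure D1:**
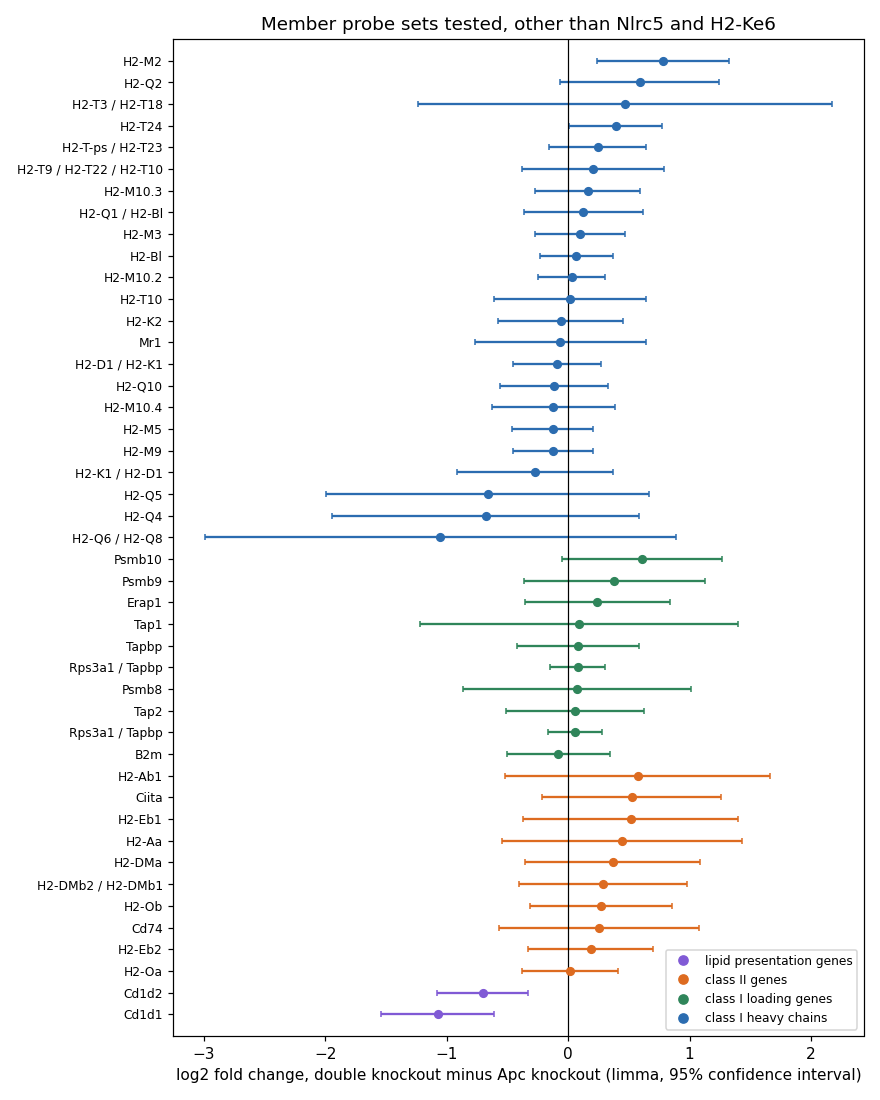
The log2 fold change of each tested member set other than Nlrc5 and H2-Ke6, double knockout minus Apc knockout, with its 95% confidence interval from limma, colored by class. The intervals of Cd1d1 and Cd1d2 lie below 0 and those of H2-M2 and H2-T24 above it, while all 10 class II points lie at or above 0 with intervals that cross it.

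The lipid presenting genes were the members with the clearest difference by genotype. Cd1d1, which encodes the CD1d chain, read 8.08, 7.39 and 7.75 in the double knockout tumors and 8.68, 8.92 and 8.85 in the Apc knockout tumors. All values of the double knockout lay under those of the Apc knockout. Its log2 fold change was -1.08 (SE 0.19), a 2.11-fold lower signal with a 95% confidence interval of 1.53 to 2.91-fold, and Cd1d1 ranked 20 among all tested sets by p. In limma its unadjusted p was 0.00119 and its adjusted p 0.821, and the exact permutation test gave 0.1, the smallest it can give. Cd1d1 is among the genes that the study selected as lowered on these same tumors, so its direction here is not independent evidence.

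Cd1d2, the neighboring copy, read 7.30, 6.83 and 7.27 in the double knockout tumors and 7.92, 7.78 and 7.81 in the Apc knockout tumors. Again the genotypes did not overlap. It was 1.63-fold lower (log2 fold change -0.71, SE 0.15; limma adjusted p = 0.821, unadjusted 0.00341). RefSeq lists Cd1d2 as a transcribed pseudogene. It is a close copy of Cd1d1, and signal of one on the probes of the other could not be assessed here. Whether the 2 sets measure separate transcripts was not tested. In both genes tumor 2 was the lowest of the double knockout tumors. Without it the log2 fold changes were negative, as they must be where the genotypes do not overlap. Over all 16 alternatives the log2 fold changes ran from -1.25 to -0.90 for Cd1d1 and from -0.79 to -0.55 for Cd1d2.

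Mr1, the metabolite presenting chain, overlapped fully, at 8.03, 8.15 and 7.76 against 8.01, 7.50 and 8.62 (log2 fold change -0.06, SE 0.29). Among the other genes of lipid loading, a list of 11 genes that act on lipids in the lysosome or carry CD1d to it, 9 were tested, 3 were higher and 6 lower, with a median of -0.09. Npc1, the lysosomal cholesterol exporter, passed the unadjusted threshold. It read 11.31, 10.50 and 11.16 in the double knockout and 11.49, 11.52 and 11.75 in the Apc knockout tumors (log2 fold change -0.59, SE 0.23; limma adjusted p = 0.821). Mttp, the lipid transfer protein of the endoplasmic reticulum, did not (log2 fold change -0.25, SE 0.16).

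**Figure D2:**
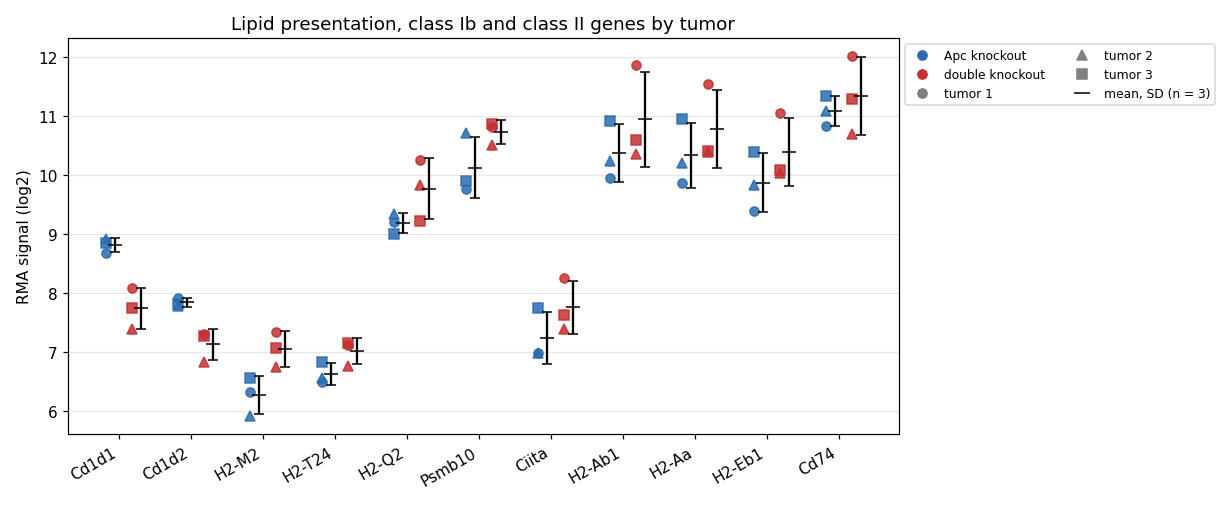
RMA signal (log2) of lipid presenting, class Ib, Psmb10 and class II probe sets in each tumor, blue for Apc knockout and red for double knockout, with the marker shape giving the tumor number and the bars the mean and SD of 3 tumors. The genotypes are separate in Cd1d1, Cd1d2 and H2-M2, and double knockout tumor 1 is at the top of H2-Ab1, H2-Aa, H2-Eb1, Cd74 and Ciita.

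Among the class I heavy chains, 23 of 28 sets were tested, 12 were higher and 11 lower, and the median log2 fold change was 0.02. RefSeq lists H2-Q5, H2-K2, H2-Bl and H2-T10 among them as transcribed pseudogenes. Both sets with an unadjusted p under 0.05 were higher in the double knockout. H2-M2, a non-classical heavy chain of the H2-M cluster, read 7.34, 6.74 and 7.06 in the double knockout tumors and 6.33, 5.91 and 6.55 in the Apc knockout tumors. The genotypes did not overlap, although the lowest double knockout and the highest Apc knockout value were close. It was 1.72-fold higher (log2 fold change 0.78, SE 0.22, 95% confidence interval 0.24 to 1.32; limma adjusted p = 0.821, unadjusted 0.0122), and its signal stood between the 21.2nd and 43.5th percentile of the arrays, below the array median in every tumor.

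H2-T24, another non-classical chain, read 7.12, 6.76 and 7.16 against 6.48, 6.55 and 6.83, so 1 double knockout tumor fell inside the Apc knockout range. Its log2 fold change was 0.39 (SE 0.16; limma adjusted p = 0.821, unadjusted 0.0471). H2-Q2 was 10.26, 9.83 and 9.22 in the double knockout and 9.21, 9.34 and 8.9995 in the Apc knockout tumors (log2 fold change 0.59, SE 0.27), with tumor 3 inside the Apc knockout range. The shared H2-T23 set, which reports Qa-1, the ligand of NKG2A receptors, was 10.45, 9.93 and 10.06 against 9.82, 10.06 and 9.83 (log2 fold change 0.24, SE 0.16). H2-M3, which presents formylated peptides, was 8.47, 7.99 and 8.17 against 7.98, 8.17 and 8.19 (log2 fold change 0.10, SE 0.15).

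The classical heavy chains H2-K1 and H2-D1 share both of their sets. In the one listed first for H2-K1 the double knockout tumors read 12.81, 11.76 and 12.43 and the Apc knockout tumors 12.53, 12.62 and 12.66 (log2 fold change -0.27, SE 0.26; 0.0153 without double knockout tumor 2). In the one listed first for H2-D1 they read 12.96, 12.44 and 12.72 against 12.80, 12.80 and 12.80 (log2 fold change -0.09, SE 0.15; 0.0438 without that tumor). In both, tumor 1 was the highest and tumor 2 the lowest of all 6, while the Apc knockout tumors were close to each other.

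Of the 6 tested H2-Q sets, 3 had ranges over 2 on the log2 scale, while H2-Q10 (0.62), the set of H2-Q1 and H2-Bl (0.64) and H2-Q2 (1.26) were within the range of the other heavy chains or close to it. H2-Q6 and H2-Q8 of the Qa-2 family, which share a set, read 12.31, 9.13 and 11.76 in the double knockout tumors and 11.91, 12.20 and 12.25 in the Apc knockout tumors. Tumor 2 lay 7.47-fold below the mean of double knockout tumors 1 and 3, and this was the widest range of any member, 3.18 on the log2 scale. H2-Q4 was 11.63, 9.59 and 11.10 against 11.09, 11.68 and 11.61, and H2-Q5 was 11.03, 8.85 and 10.41 against 10.41, 10.998 and 10.88. The log2 fold changes were -1.05 (SE 0.80) for H2-Q6 and H2-Q8, -0.68 (SE 0.52) for H2-Q4 and -0.66 (SE 0.55) for H2-Q5. Without double knockout tumor 2 they were -0.09, -0.09 and -0.04. The 3 sets are paralogs, so cross-hybridization between them cannot be told apart from each gene's own signal.

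H2-T3, which with H2-T18 encodes the TL antigen of intestinal epithelium, had the widest range outside the H2-Q6 and Nlrc5 sets, 2.82. It read 8.88, 6.06 and 6.61 in the double knockout tumors and 6.81, 6.66 and 6.67 in the Apc knockout tumors. Tumor 1 alone was high, and the log2 fold change of 0.47 (SE 0.70) became -0.38 without it.

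**Figure D3:**
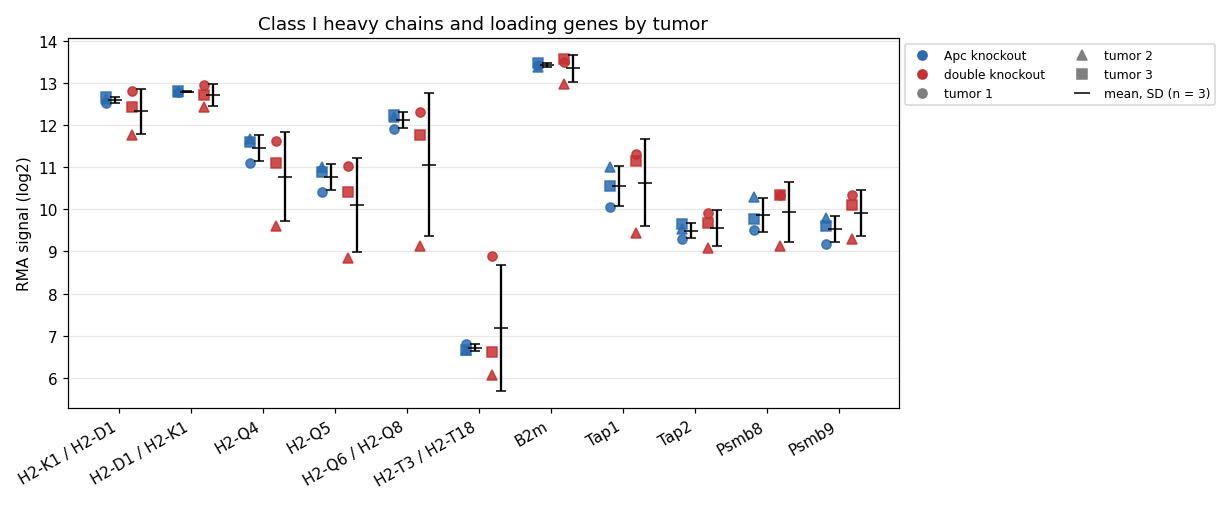
RMA signal (log2) of class I heavy chain and loading probe sets in each tumor, blue for Apc knockout and red for double knockout, with the marker shape giving the tumor number and the bars the mean and SD of 3 tumors. Double knockout tumor 2 (red triangle) is the lowest double knockout point in every set drawn, by most in H2-Q6 and H2-Q8, and only H2-T3 and H2-T18 have tumor 1 far above the rest.

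The genes that load class I had no member past an unadjusted p of 0.05 and none without overlap. Of the 10 sets other than Nlrc5, 9 had a positive log2 fold change, as did 10196 of all 19506 sets. Their median was 0.08, and 0.36 without double knockout tumor 2. These sets are not 10 separate genes, since Tapbp has a set of its own besides those it shares with Rps3a1. The pair of sets that Tapbp shares with Rps3a1 read 12.30 to 12.70 and differed little between tumors. B2m, the light chain of every class I molecule and the internal control of the study's quantitative PCR, read 13.50, 12.97 and 13.57 in the double knockout tumors and 13.43, 13.39 and 13.47 in the Apc knockout tumors (log2 fold change -0.08, SE 0.18). It was lowest in tumor 2, at -0.56 from the mean of double knockout tumors 1 and 3, and its log2 fold change was 0.11 without that tumor.

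The peptide transporter was lowest in the same tumor. Tap1 was 11.33, 9.44 and 11.14 in the double knockout and 10.06, 11.02 and 10.56 in the Apc knockout tumors, and Tap2 was 9.91, 9.07 and 9.68 against 9.31, 9.52 and 9.66. The Tap1 log2 fold change was 0.09 (SE 0.54), and 0.69 without double knockout tumor 2. Tap2 differed by 0.06 (SE 0.23), and by 0.30 without that tumor. Tapasin, Tapbp, read 11.78, 11.07 and 11.74 against 11.37, 11.50 and 11.48, a difference of 0.08 (SE 0.21) and of 0.31 without tumor 2, so that tumors 1 and 3 were above, and tumor 2 below, all of the Apc knockout tumors.

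The immunoproteasome subunits Psmb8 and Psmb9 were low in double knockout tumor 2 and in Apc knockout tumor 1. Psmb8 was 10.35, 9.13 and 10.34 in the double knockout tumors and 9.52, 10.30 and 9.78 in the Apc knockout tumors (log2 fold change 0.07, SE 0.39; 0.48 without double knockout tumor 2). Psmb9 was 10.33, 9.29 and 10.11 against 9.19, 9.80 and 9.60 (log2 fold change 0.38, SE 0.31; 0.69 without it). Psmb10 was 10.82, 10.50 and 10.86 against 9.76, 10.71 and 9.89 (log2 fold change 0.61, SE 0.27), the largest positive log2 fold change among the loading genes, with Apc knockout tumor 2 inside the double knockout range. Erap1, the trimming peptidase, was 10.27, 9.74 and 10.25 against 9.75, 10.28 and 9.50 (log2 fold change 0.24, SE 0.25; 0.41 without double knockout tumor 2). Of 8 proteasome activator and constitutive subunits 5 were higher and 3 lower, with a median of 0.06, and of 11 peptide loading partners such as the chaperones Calr and Hspa5 10 were tested, 8 were higher and 2 lower, also with a median of 0.06 and none past an unadjusted p of 0.05. Calr differed by 0.21 (SE 0.11) and Hspa5 by 0.23 (SE 0.11).

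Nlrc5, the class I transactivator, was measured by 19 probe sets. Their median per tumor was 9.87, 7.93 and 9.52 in the double knockout tumors and 8.91, 9.38 and 9.97 in the Apc knockout tumors. The lowest signal was in double knockout tumor 2 in 19 of 19 sets, below the mean of double knockout tumors 1 and 3 by a median of 1.62 (the differences ran from -2.66 to -0.46). Apc knockout tumor 1 was among the 2 lowest in 18 of 19, and Apc knockout tumor 3 the highest in 16. These sets are parts of 1 gene and do not count as 19 results.

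Across the Nlrc5 sets the median log2 fold change between genotypes was -0.29, with 18 lower and 1 higher, none past an unadjusted p of 0.05. Its sign rested on 1 tumor. Without double knockout tumor 2 the median was 0.24, and the mean of tumors 1 and 3 was above the Apc knockout mean in all 19 sets, by 0.07 to 0.40. Counted by probe set, the class I loading genes had a median of -0.22, and counted with 1 value per symbol, which stops Nlrc5 from outweighing the rest, 0.08.

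**Figure D4:**
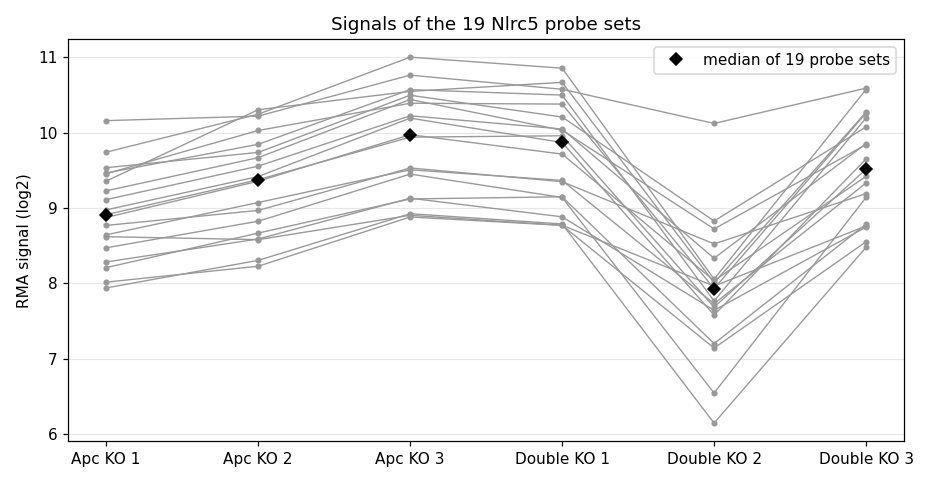
RMA signal (log2) of the 19 Nlrc5 probe sets in each of the 6 tumors, with 1 gray line per set and a black diamond for the median of the 19. Every line falls to its lowest point in double knockout tumor 2, and the medians run from 7.93 there to 9.97 in Apc knockout tumor 3.

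Double knockout tumor 2 was thus below the mean of tumors 1 and 3 in Nlrc5 and in 10 of 10 other loading sets, by a median log2 difference of -0.63 in the latter, with the sets shared with Rps3a1 at -0.03 and -0.04. The same held for 16 of 23 class I heavy chain sets (69.6%), 7 of 10 class II sets (70.0%) and both lipid presenting sets, where 50.4% of all tested sets were below. Genes known to respond to interferon gamma were low in the same tumor. Of 12 on a list that overlaps the rule in no gene, 9 were tested, and double knockout tumor 2 was the lowest in 7 and Apc knockout tumor 1 in the other 2. Double knockout tumor 3 was the highest in 8. Cxcl9, a chemokine that draws activated T cells, ran 11.45, 8.42 and 12.10 in the double knockout and 9.77, 10.96 and 11.33 in the Apc knockout tumors. Irgm1, a GTPase of cell-autonomous defense, was 10.87, 9.37 and 11.11 against 9.46, 10.04 and 10.23.

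By genotype the 9 responsive genes had a median log2 fold change of 0.41, with 8 higher and 1 lower, and none passed an unadjusted p of 0.05. Without double knockout tumor 2 the median was 1.12 with 9 of 9 higher, without tumor 3 it was -0.05, and without tumor 1 it was 0.25. Psme2, a proteasome activator subunit, had the smallest p of them (log2 fold change 0.30, SE 0.16). The upstream genes varied less: of 12 genes of interferon gamma signaling 11 were tested, 9 were higher and 2 lower with a median of 0.12, and Irf8, an interferon regulatory factor of myeloid cells, had the smallest p (log2 fold change 0.46, SE 0.22). Of 9 co-stimulatory and checkpoint ligands 8 were tested, with 5 higher, 3 lower and a median of 0.04, which was 0.21 without double knockout tumor 2 and -0.17 and -0.15 without tumors 1 and 3. Double knockout tumor 2 was the lowest in 6 of the 8, Cd274, which encodes PD-L1, among them at 9.85, 7.83 and 10.46 against 8.63, 9.33 and 9.72. In the class I-like genes outside the rule, 6 of 11 tested, the order was not the same: 4 were highest in tumor 2, and by genotype 4 were higher and 2 lower, with a median of 0.16.

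**Figure D5:**
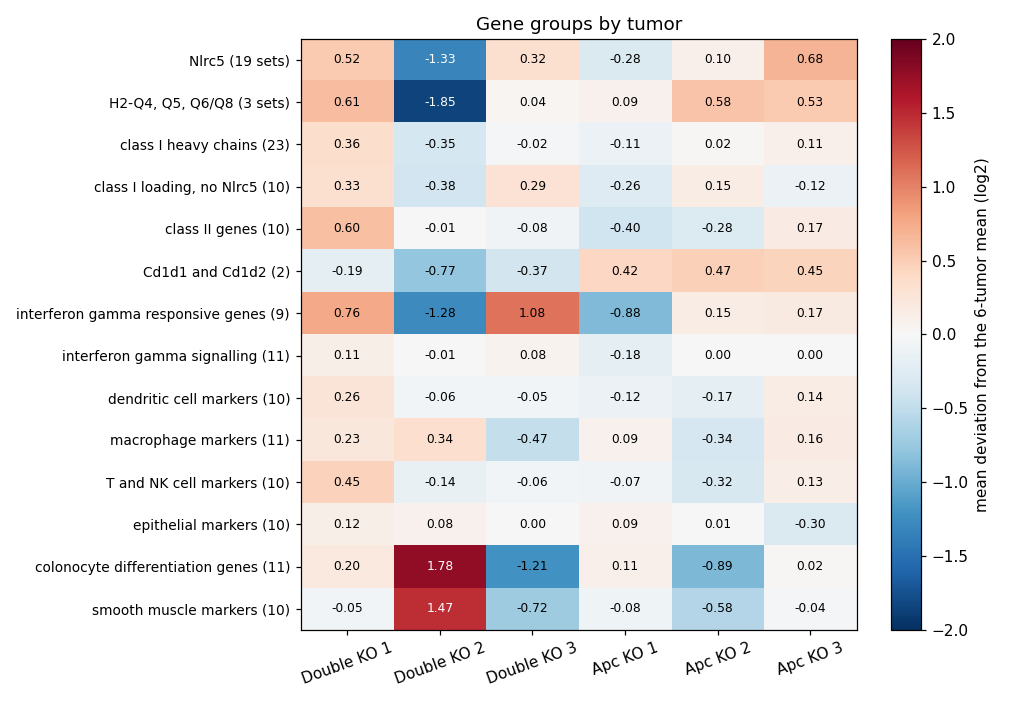
Mean deviation of each gene group from its 6-tumor mean (log2), 1 row per group and 1 column per tumor, red above and blue below the mean. Double knockout tumor 2 is low in Nlrc5 (-1.33) and the interferon gamma responsive genes (-1.28) and high in colonocyte (1.78) and smooth muscle genes (1.47). The row of H2-Q4, H2-Q5 and H2-Q6 with H2-Q8 holds the H2-Q sets of widest range. Its low value in that tumor (-1.85) was therefore largely fixed by the grouping, and all 23 class I heavy chain sets average -0.35 there. The lipid presenting genes are the group split by genotype.

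The class II genes were higher in the double knockout tumors in 10 of 10 tested sets, against 10196 of all 19506 sets, by a median of 0.32, but none passed an unadjusted p of 0.05 and none was free of overlap. By the sex pattern of the arrays 2 of 3 double knockout and 1 of 3 Apc knockout tumors were male, and with it as a covariate the median was 0.19 and the H2-Aa log2 fold change 0.20. H2-Ab1 and H2-Aa, the chains of the I-A molecule, read 11.87, 10.36 and 10.59 and 11.54, 10.39 and 10.41 in the double knockout tumors. In the Apc knockout tumors they read 9.95, 10.24 and 10.91 and 9.87, 10.20 and 10.94. Tumor 1 stood above all others, and the other double knockout tumors lay inside the Apc knockout range. The log2 fold changes, 0.57 (SE 0.45) and 0.44 (SE 0.41), were 0.11 and 0.07 without double knockout tumor 1.

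H2-Eb1 followed them, at 11.05, 10.03 and 10.08 against 9.39, 9.84 and 10.38 (log2 fold change 0.52, SE 0.36; 0.18 without double knockout tumor 1). Cd74, the invariant chain that guides class II to the endosome, was 12.02, 10.70 and 11.29 against 10.83, 11.08 and 11.33 (log2 fold change 0.25, SE 0.34), and its difference was -0.09 without that tumor. Ciita, the class II transactivator, was 8.25, 7.39 and 7.63 in the double knockout and 6.97, 6.99 and 7.74 in the Apc knockout tumors (log2 fold change 0.52, SE 0.30, and 0.27 without double knockout tumor 1). Of the peptide editors, H2-DMa was 9.44, 8.31 and 8.57 against 8.30, 8.33 and 8.60 (log2 fold change 0.37, SE 0.30). The set of H2-DMb1 and H2-DMb2 was 9.02, 8.21 and 8.13 against 7.91, 8.08 and 8.51 (log2 fold change 0.28, SE 0.28). Without double knockout tumor 1 the log2 fold changes were 0.03 for H2-DMa and -4e-04 for the H2-DMb1 and H2-DMb2 set.

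Double knockout tumor 1 was thus the highest of the 6 in 7 class II sets. The exceptions were H2-Oa and H2-Ob, the chains of the DM inhibitor made mainly by B cells, and H2-Eb2, which were highest in double knockout tumor 2 and differed by 0.01, 0.27 and 0.18 between genotypes. Over those 7 sets, grouped after their values were seen, the mean deviation from the 6-tumor mean was 0.89, -0.22 and -0.04 in the double knockout tumors and -0.53, -0.31 and 0.21 in the Apc knockout tumors. The median log2 fold change over them was 0.44, and 0.07 without double knockout tumor 1. Tumor 2 was the lowest of the double knockout tumors in 6 of the 7, and below the mean of tumors 1 and 3 in all 7, by a median log2 difference of -0.59. The sets left out were those highest in tumor 2, so these counts were largely fixed by the grouping. Over all 10 class II sets the mean deviation of tumor 2 was -0.01.

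Markers of the cells that carry class II were read beside these values. The 10 dendritic cell markers had a summed signal of 10.69 to 11.03 in the double knockout and 10.61 to 11.03 in the Apc knockout tumors. Double knockout tumor 1 and Apc knockout tumor 3 both stood at 11.03, and their mean deviations over all 10 class II sets were 0.60 and 0.17. Double knockout tumor 1 was the highest in 5 of the markers, Itgax included at 8.92, 7.89 and 8.31 against 8.13, 8.03 and 8.46, and Apc knockout tumor 3 in 3. By genotype 8 of the 10 were higher and 2 lower, Cd83 (-0.25) and Ccr7 (-0.06), with a median log2 fold change of 0.08. Cd209a, a lectin of dendritic cells, was the marker of this list past an unadjusted p of 0.05. It read 6.72, 6.80 and 6.61 against 6.05, 6.13 and 6.48, with no overlap (log2 fold change 0.49, SE 0.14, limma adjusted p = 0.821, unadjusted 0.0138). Of all tested sets, 1.78% were called higher at that level and 5.25% were higher without overlap. The 11 macrophage markers ran from 12.43 to 13.16 and from 12.60 to 13.02. The 12 T and NK cell markers ran from 10.51 to 11.23 and from 10.34 to 10.81, and tumor 1 was the highest in 7 of the 10 above the filter. Of the B cell markers, 4 were above the filter, while Ms4a1, Cd79a and Fcrla were below it. Summed over all 7 sets, those below the filter included, B cell markers were highest in double knockout tumor 2, at 9.90 against 9.22 to 9.44 elsewhere. Of the 4 above the filter 3 were highest in that tumor, and Blk was highest in Apc knockout tumor 3. H2-Ob and H2-Oa were also highest in double knockout tumor 2. The part of these cells in the class II signal was not tested.

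Neutrophil and endothelial markers took another order. The 10 neutrophil markers had summed signals of 11.84 to 13.60 in the double knockout and 12.96 to 13.67 in the Apc knockout tumors, with 9 lower and 1 higher. Past an unadjusted p of 0.05 in limma were 3, all lower, among them S100a9 and Retnlg, where 3.82% of all sets were called lower. After adjustment 0 of the 10 passed. Endothelial markers ran from 11.67 to 12.04 and from 11.49 to 12.17. Their part in the lower Cd1d1 signal of the double knockout tumors was not tested either. The other partners of class II, 13 tested of 15 proteases and transcription factors, had a median log2 fold change of 0.02, with 7 higher and 6 lower. Nfyb, a subunit of the Y box factor NF-Y, was 9.38, 9.25 and 9.57 against 9.83, 9.80 and 9.71 (log2 fold change -0.38, SE 0.12; limma adjusted p = 0.821, unadjusted 0.0183). Lgmn, an asparagine-specific protease of the endosome, was 12.12, 11.43 and 11.60 against 12.33, 12.21 and 12.15 (log2 fold change -0.51, SE 0.19; limma adjusted p = 0.821, unadjusted 0.0366). Both were below every Apc knockout tumor in all 3 double knockout tumors, as were 6.94% of all tested sets. Other genes of this list went the other way. The NF-Y subunits Nfya and Nfyc had log2 fold changes of 0.38 (SE 0.18) and 0.09 (SE 0.10). Ifi30 had the largest change of the list, 0.62 (SE 0.26), and none of these 3 passed an unadjusted p of 0.05 in limma. Rfx5, which binds the X box, was lowest in double knockout tumor 2, at 9.13, 8.05 and 9.19 against 8.82, 8.94 and 9.37.

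As mean deviations in double knockout tumors 1, 2 and 3, class I heavy chains gave 0.36, -0.35 and -0.02, the loading genes other than Nlrc5 0.33, -0.38 and 0.29, class II 0.60, -0.01 and -0.08, and the lipid presenting genes -0.19, -0.77 and -0.37. In the Apc knockout tumors the same groups gave -0.11, 0.02 and 0.11, then -0.26, 0.15 and -0.12, then -0.40, -0.28 and 0.17, and 0.42, 0.47 and 0.45. The genotypes overlapped in the class I and class II groups and were separate in the lipid presenting genes alone among these. The difference between the groups' genotype effects was not tested.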

How the data were processed

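RNA of 3 double knockout and 3 Apc knockout laser-microdissected colon tumors was hybridized to Affymetrix Mouse Gene 1.0 ST arrays, 1 per tumor. In GeneSpring GX the authors ran RMA on the scans and deposited log2 signals; the RMA version is not given in the sources used here. Groups were taken from the sample titles and source names. Members and gene lists were chosen with earlier results of these data known.

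In the platform annotation, 21789 probe sets have 1 symbol, 1621 several and 12146 none. Of the 84 member gene identifiers, 83 were in RefSeq (GRCm38.p6). A set was tested if it had a symbol and its 6-tumor mean reached the 20th percentile (5.88), which 19506 did. Tests used limma 3.58.1 (lmFit, eBayes) in R 4.3.3, two-sided, without covariates, and Benjamini-Hochberg adjustment over all of them at 0.05. The fit was tested on simulated data. Intervals are at 95%. Exact permutation tests are two-sided. The number of arrays limits the precision.

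Values in every tumor are given for the core genes of each branch, for members with an unadjusted p under 0.05 or no overlap and a log2 fold change of at least 0.5, and for the widest ranges; other genes were named after their values were seen. Gene lists used sets of 1 symbol. Alternatives were the methods' t-test, other filters, median centring, a further quantile normalization, trend and robust eBayes, the replicate number as a block, the sex pattern of the arrays as a covariate, sets of 1 symbol, each tumor left out and, added after seeing the data, 1 value per gene symbol. Promoter windows are from the RefSeq table.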

Additional observations from a re-analysis of the deposited data

How the results depend on the processing

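After adjustment 0 members were called under each of the 16 alternatives, the methods' t-test included. Members with an unadjusted p under 0.05 numbered 4, and 2 with a 40th percentile filter, 3 by the methods' t-test and 3 to 6 with 1 tumor left out. The replicate numbers do not pair the tumors (correlations of deviations -0.20, -0.07 and 0.09); with the replicate block 5 members were called at that level and 0 after adjustment. Cd1d1 and Cd1d2 kept their direction under 16 alternatives, and H2-M2 and H2-T24 under 15, since the 40th percentile filter removed both. In Cd1d1, Cd1d2 and H2-M2 the genotypes do not overlap, so leaving out 1 tumor could not reverse the direction. The filters, eBayes options, t-test, replicate block and sets of 1 symbol leave a set's log2 fold change as it was. Most of these outcomes were therefore fixed in advance and are a weak check. Of 515 alternative values of 33 single results, 488 kept direction and side of the threshold, many of them for the same reason. The other 27 reversed, 25 of them with 1 tumor left out. With 1 tumor left out, log2 fold changes ran from -0.19 to 0.11 for B2m, -0.25 to 0.69 for Tap1, -0.12 to 0.30 for Tap2, -0.0484 to 0.31 for Tapbp, -0.13 to 0.48 for Psmb8, -0.0886 to 0.57 for Cd74, -4e-04 to 0.46 for H2-DMb1 and H2-DMb2, -0.33 to 0.22 for Mr1, -0.38 to 1.03 for H2-T3 and H2-T18, -0.22 to 0.0438 for the H2-D1 set, -0.51 to 0.0153 for the H2-K1 set, -0.0323 to 0.21 for H2-M3, -0.12 to 0.14 for H2-Oa, -0.0019 to 0.44 for H2-Ob and -0.0314 to 0.33 for H2-Eb2. H2-Oa was also -0.0046 after a further quantile normalization and -0.087 with the sex pattern as a covariate; the cause was not tested. Class medians ran from -0.09 to 0.06 for class I heavy chains, -0.47 to 0.29 for loading genes (0.08 with 1 value per gene symbol, an alternative chosen after seeing the data), 0.09 to 0.58 for class II and -1.02 to -0.73 for lipid presentation. The smallest adjusted p over all sets was 0.606, and 0.104 without double knockout tumor 3.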
